A study of Mus musculus with 5 samples.

Results

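The integrated stress response was followed in 5 mouse cell cultures through 6 of its genes: Atf4, Atf3, Ddit3, Asns, Ppp1r15a and Gadd45a. All probe sets annotated to 1 of these symbols were taken, which gave 9 of the 12488 probe sets in the deposited table. Of these, 7 passed the filter on low values, a quantile-normalised intensity above 21.8 on at least 1 array, and 2 probe sets of Atf3 did not. Each culture was measured on 1 Affymetrix expression array from polyadenylated RNA. AxJ, a mouse plasma cell line, was stably transfected with empty vector (1 array), with a construct that overexpresses hnRNP-H, which binds RNA (1 array), or with one that overexpresses hnRNP-F, a relative of hnRNP-H (1 array each for subclones B5 and D6). A20, labelled as a memory B cell line, was the fifth culture (1 array). The AxJ clones had been picked for high expression of the transfected protein by western blot. All cultures were grown in IMDM with serum, but the AxJ cultures also held the selection drug G418 and the A20 culture did not, so cell line and drug cannot be told apart. The labels do not say that any culture was repeated. The p-values then rest on the spread between empty vector and hnRNP-H and between subclones B5 and D6. In that spread, differences of line or construct and technical differences cannot be told apart.

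The integrated stress response slows general protein synthesis when a kinase phosphorylates the initiation factor eIF2. The kinases answer to misfolded protein in the endoplasmic reticulum, amino acid shortage, double-stranded RNA or haem deficiency. Under these conditions the mRNA of the transcription factor ATF4 is translated more, so that ATF4 protein can rise without a change in its mRNA. ATF4 and its partners then raise genes of amino acid supply and, when stress lasts, of growth arrest and cell death. Plasma cells fold and secrete large amounts of antibody, and the kinase PERK links the unfolded protein response of the endoplasmic reticulum to the integrated stress response.

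The 120 bases before the annotated start of 4 of the genes are shown because they hold matches to the sequence motifs described below. The sequences are from RefSeq (GRCm38.p6), all on the minus strand, 5′ to 3′, with motif matches in capitals.
Asns, chr6:7693210-7693329: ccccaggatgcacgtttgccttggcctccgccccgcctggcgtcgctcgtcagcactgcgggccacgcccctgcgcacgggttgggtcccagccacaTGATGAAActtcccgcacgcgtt
Atf3, chr1:191183334-191183453: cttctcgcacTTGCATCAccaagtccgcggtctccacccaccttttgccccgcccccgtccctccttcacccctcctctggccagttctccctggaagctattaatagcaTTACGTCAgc
Ppp1r15a, chr7:45526269-45526388: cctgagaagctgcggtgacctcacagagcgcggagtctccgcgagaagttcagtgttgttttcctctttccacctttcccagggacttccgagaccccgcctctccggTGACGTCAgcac
Gadd45a, chr6:67037408-67037527: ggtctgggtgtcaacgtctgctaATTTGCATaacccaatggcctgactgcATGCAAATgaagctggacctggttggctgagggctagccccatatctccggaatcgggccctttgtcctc

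TGATGNAA, the core of the element bound by ATF4 with a C/EBP partner, was matched in Asns, starting 23 bases before the transcript start, and on the other strand in Atf3, starting 110 bases before it. The cyclic AMP response element TGACGTCA was matched in Ppp1r15a, 12 bases before the start. Its variant TTACGTCA was matched in Atf3, 10 bases before the start. The octamer ATGCAAAT, bound by POU factors and known from immunoglobulin promoters, was matched in Gadd45a once on each strand, 97 and 70 bases before the start. The 300-base windows of Atf4 and Ddit3 held none of these letters. Both strands of 32851 mouse promoter windows of 300 bases were searched. TGATGNAA was found in 3.97% of them, TGACGTCA in 1.79%, TTACGTCA in 0.499% and ATGCAAAT in 1.74%. TGATGNAA and ATGCAAAT can overlap in a sequence but did not do so here. The motifs were chosen after the windows had been read, and a match is a description only.

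Across the series the Gapdh control probe sets differed in their 5′ to 3′ ratio, a sign of RNA integrity or labelling. Of the AxJ arrays, B5 (0.181) and empty vector (0.212) had low ratios and D6 (0.683) and hnRNP-H (0.866) high ones, and A20 stood between them at 0.384. Marker sums followed the labels of the lines. The summed intensity of 7 measured B cell markers was 638 to 936 in the AxJ lines and 6023 in A20. That of 8 plasma cell markers was 15436 to 24128 in the AxJ lines and 2788 in A20. Igha was the brightest plasma cell marker in every AxJ line. Sdc1 was an exception, since A20 (30.5) lay between B5 (20.1) and empty vector (37.3). Xbp1 was only slightly lower in A20 (465) than in empty vector (539). Each other plasma cell marker was lower in A20 than in every AxJ line, and each B cell marker was higher. Below, levels are quantile-normalised intensities and every difference was taken between values of log2(intensity + 6.55), a scale that shrinks the change of dim probe sets. The array number limits the precision, and in bulk RNA fewer cells of a type and less RNA per cell cannot be told apart.

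**Figure D1:**
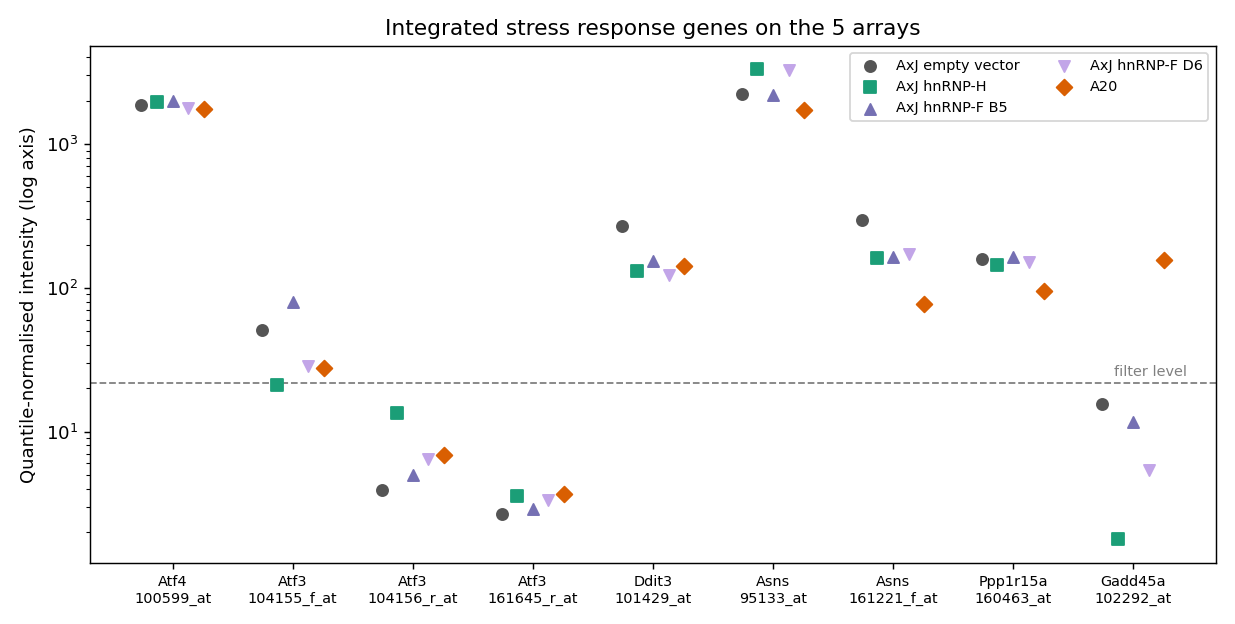
Quantile-normalised intensity (log axis) of the 9 probe sets of the 6 genes on each of the 5 arrays, 1 point per array, with the filter level of 21.8 as a dashed line. Gadd45a stands at 157 in A20 and below the line in all 4 AxJ cultures, and 2 probe sets of Atf3 lie below the line on every array.

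Atf4, the transcription factor at the centre of the response, differed little between cultures. At its probe set (100599_at) the empty vector line read 1855 and the hnRNP-H line 1950, clones B5 and D6 read 1978 and 1791, and A20 read 1739. The hnRNP-F clones enclosed the controls, and A20 lay just below the lowest AxJ array. That place of A20 depended on the scaling: under median scaling it differed from the controls by -0.003 and was not lowest. The fitted difference of the hnRNP-F clones from the AxJ controls was -0.015 (SE 0.23, 95% interval -0.54 to 0.51, limma adjusted p = 0.993). That of A20 was -0.13 (SE 0.28, interval -0.77 to 0.51, adjusted p = 0.865). These values concern the mRNA and not ATF4 protein.

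Ddit3 encodes CHOP, a transcription factor of the C/EBP family that is induced by ATF4 and known for promoting cell death under lasting stress. For its probe set (101429_at) the controls gave 268 (empty vector) and 130 (hnRNP-H), clones B5 and D6 gave 154 and 122, and A20 gave 143. Empty vector stood above the other 4 arrays, which lay close together, and the groups overlapped. The hnRNP-F clones differed by -0.43 (SE 0.38, interval -1.31 to 0.44, limma adjusted p = 0.829) and A20 by -0.38 (SE 0.47, interval -1.45 to 0.70, adjusted p = 0.737). Both differences rested on the empty vector array: without it they were 0.067 and 0.12.

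Atf3 is a stress-induced transcription factor of the same leucine zipper class, which dimerises with other ATF and JUN proteins and can repress its targets. On probe set 104155_f_at, clone B5 read 79.1 and the empty vector line 50.8, followed by D6 with 28.4, A20 with 27.7 and the hnRNP-H line with 20.9. Empty vector and B5 were high, and the other 3 arrays lay near the filter level. The clones differed from the controls by 0.46 (SE 0.57, interval -0.84 to 1.77, limma adjusted p = 0.885), and A20 by -0.21 (SE 0.70, interval -1.81 to 1.38, adjusted p = 0.916). In the maker's naming, the ending f marks a probe set that may read a family of like sequences and the ending r one for which design rules were relaxed. The other Atf3 probe sets were 104156_r_at with 3.95 to 13.5 and 161645_r_at with 2.68 to 3.68. Both lay below the filter level on every array, and the order of their values was not read.

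The high Atf3 arrays were also the 2 with the lowest Gapdh ratio. Within the arrays of low ratio B5 differed from empty vector by 0.58, and within those of high ratio D6 differed from hnRNP-H by 0.35. Of 4 marker lists of other cell types, the stromal and T cell sums were highest on the same arrays. The summed intensity of 6 stromal markers was 636 in B5 and 531 in empty vector, and in D6, hnRNP-H and A20 it was 457, 443 and 354. Col1a2 made up most of that sum, Sparc was near 0 with 2.06 to 9.49, and Col3a1 ran the other way, reading 6.36 (B5) and 3.92 (empty vector), while the remaining arrays gave 17.1 to 28.0. The sum of 5 T cell markers was 76.4 and 121 in empty vector and B5, against 53.4 to 66.1 in the other cultures. Of these markers Cd4 alone lay above the filter level on any array, and Cd3g read 2.43 to 3.76. Cd3e was lowest in empty vector (7.46) and highest in B5 (17.0). The myeloid and erythroid sums did not follow Atf3. That of 6 myeloid markers was lowest in empty vector (160) and highest in B5 (375), with 176 to 209.5 elsewhere. That of 4 erythroid markers was 202 in empty vector but 147 in B5, against 134 to 184 elsewhere. The part of RNA quality or of these markers in the Atf3 values was not tested.

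Asns encodes asparagine synthetase, a classical ATF4 target that makes asparagine from aspartate. At probe set 95133_at, B5 read 2206 and empty vector 2219, D6 read 3299 and hnRNP-H 3305, and A20 read 1714. The AxJ arrays fell into a lower pair, empty vector and B5, and a higher pair, hnRNP-H and D6, and A20 lay below all of them. The higher pair also had the higher Gapdh ratio, whose part was not tested. The second probe set, 161221_f_at, gave 295 for empty vector, from 160 to 172 for the other AxJ lines (hnRNP-H 160, B5 164, D6 172) and 77.2 for A20. It did not show the same pairs, since empty vector stood highest, but A20 was again below every AxJ array.

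For Asns the hnRNP-F clones differed from the controls by -0.0056 at 95133_at (SE 0.30, interval -0.69 to 0.67, limma adjusted p = 0.998). At 161221_f_at the difference was -0.36 (SE 0.35, interval -1.17 to 0.45, adjusted p = 0.837). Within the arrays of low and of high Gapdh ratio, 95133_at differed by -0.0089 and -0.0024. The same differences at 161221_f_at were -0.82 and 0.098. A20 differed by -0.66 at 95133_at (SE 0.36, interval -1.49 to 0.17, adjusted p = 0.384) and by -1.42 at 161221_f_at (SE 0.43, interval -2.41 to -0.43, adjusted p = 0.104). Neither passed the threshold. With empty vector as the only control, or without hnRNP-H, 161221_f_at differed by -1.85 and passed, and its adjusted p over 13 alternatives ranged from 0.0391 to 0.229.

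**Figure D2:**
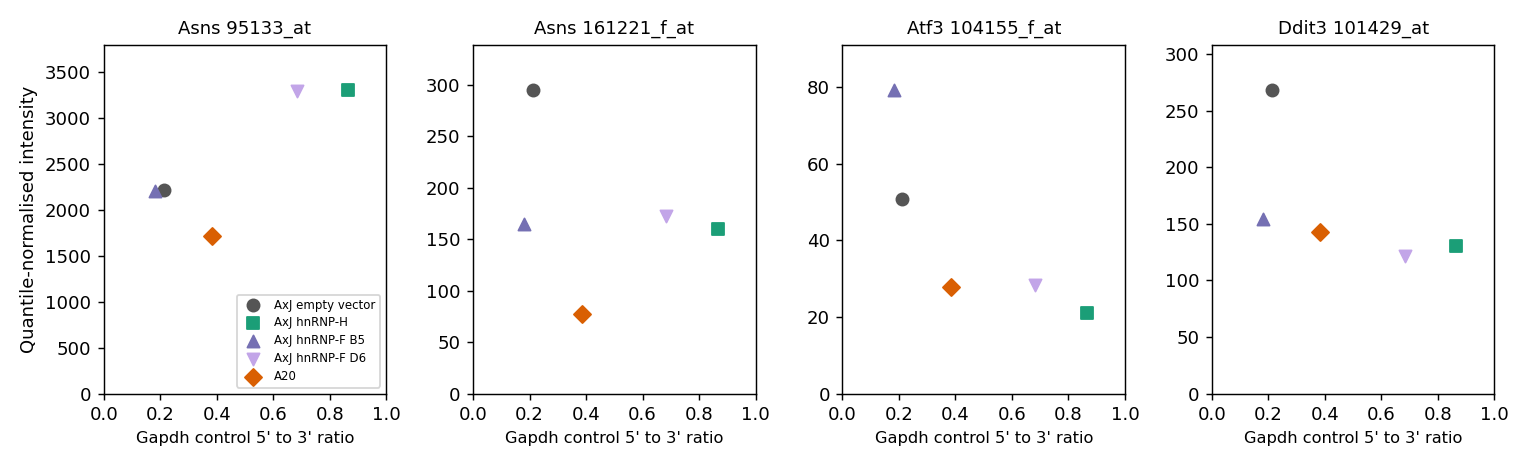
Quantile-normalised intensity of 4 probe sets against the Gapdh 5′ to 3′ ratio (x axis, no unit), 1 point per array. Asns 95133_at is at 2206 and 2219 on the AxJ arrays of low ratio and at 3299 and 3305 on those of high ratio, Atf3 104155_f_at is highest at low ratio, and for Ddit3 and Asns 161221_f_at the empty vector array alone stands high.

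Ppp1r15a encodes GADD34, the regulatory subunit that directs protein phosphatase 1 to eIF2 and so ends the response. Its probe set (160463_at) read 144 to 163 across AxJ (hnRNP-H 144, D6 151, empty vector 158, B5 163) and 95.6 in A20. The 4 AxJ arrays were close together and A20 lay below them. A20 differed from the controls by -0.63 (SE 0.36, interval -1.45 to 0.20, limma adjusted p = 0.410), which did not pass. The hnRNP-F clones differed by 0.056 (SE 0.30, interval -0.62 to 0.73, adjusted p = 0.978).

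Gadd45a encodes a small nuclear protein of growth arrest and DNA damage signalling, induced by p53 and also under stress of the endoplasmic reticulum. Its probe set (102292_at) read 157 in A20, and in AxJ it read 15.5 (empty vector), 11.7 (B5), 5.44 (D6) and 1.79 (hnRNP-H). It was the one member that passed in A20, where it was higher by 3.59 (SE 0.80, interval 1.76 to 5.42, limma adjusted p = 0.0367), a 12.0-fold difference on this scale. A20 exceeded each AxJ array, by 2.89 over empty vector, 4.29 over hnRNP-H, 3.16 over B5 and 3.77 over D6. All 4 AxJ values lay below the filter level, so the probe set was kept through A20 alone and the fold depends on the pseudocount.

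The Gadd45a call was lost in 7 of 14 alternatives, although its difference stayed between 2.59 and 4.54. The adjusted p was 0.0863 with a pseudocount of 1, 0.0654 without the filter, 0.0832 without the intensity trend and 0.0811 with empty vector as the only control. Left out in turn, hnRNP-H, B5 and D6 gave 0.0625, 0.0705 and 0.0604, and empty vector gave 0.0423. Among the AxJ arrays the values were higher on those of low Gapdh ratio, empty vector and B5, than on those of high ratio. The fitted difference of the hnRNP-F clones, 0.13 (SE 0.65, interval -1.37 to 1.62, adjusted p = 0.978), compared values that were all below the filter level.

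For the hnRNP-F clones the comparison asked whether the overexpressed protein goes with a change in these genes. None of the 7 probe sets passed, and none had the 2 clones on one side of the 2 controls. Over all 9108 probe sets tested, 0.0110% passed and 37.5% had groups that did not overlap. The unadjusted p of the members was 0.290 or higher, while 526 probe sets (5.78%) had one under 0.05. For A20, 1 of 7 member probe sets passed, where 5.88% of all did, with 263 higher and 273 lower (358 and 190 under median scaling). That 1 was Gadd45a, which was kept through A20 alone, and without the filter 0 of 9 passed, so nothing is read from the count. A20 lay below all AxJ arrays for 4 of the 7 (28.9% over all probe sets) and above for 1 (26.0%). The 4 were both Asns probe sets, Ppp1r15a and Atf4. For Atf4 the difference of A20 from D6 was only -0.042, and under median scaling A20 was not below D6. The median difference of the 7 was -0.38, against -0.036 for all probe sets. Under the authors' own scaling the median of all probe sets moved to -0.14, and under median scaling to 0.063. The Asns, Ppp1r15a and Gadd45a differences in A20 kept their sign under both of these scalings.

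**Figure D3:**
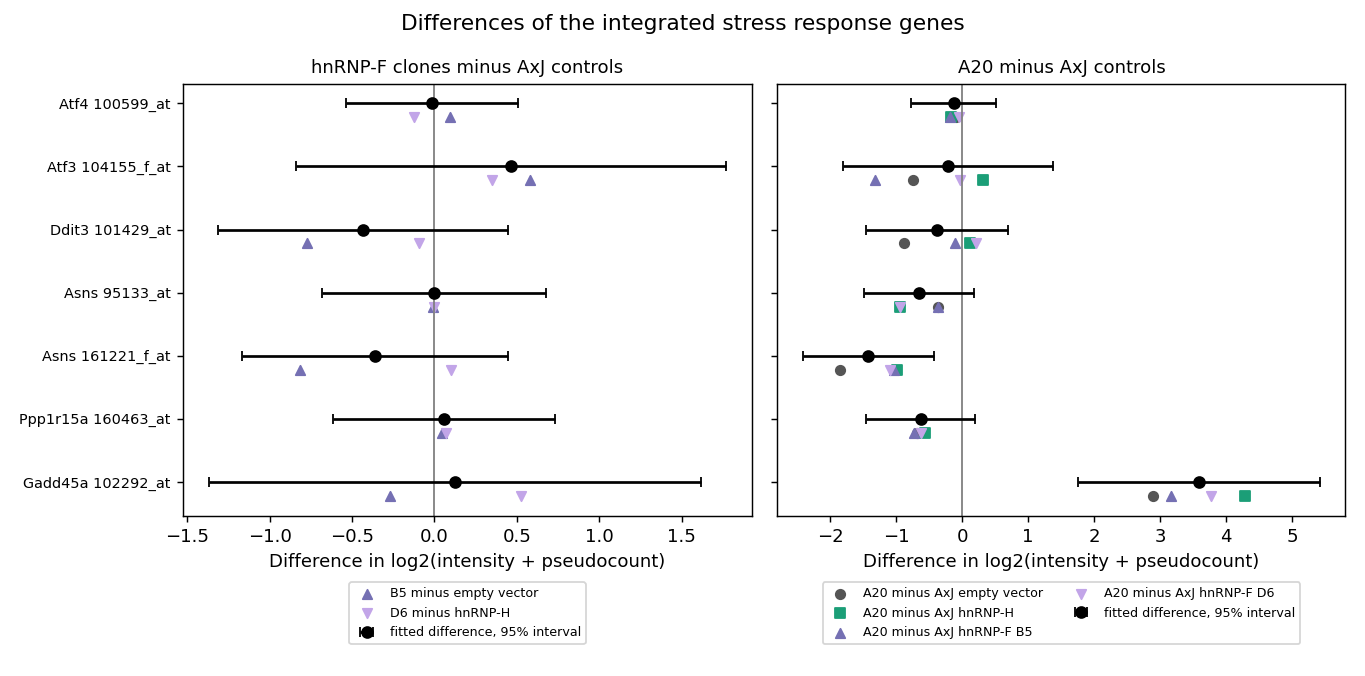
Differences in log2(intensity + pseudocount) for the 7 probe sets kept, hnRNP-F clones on the left and A20 on the right, each minus the AxJ controls. Black points are fitted differences with 95% intervals and coloured points are differences between single arrays. All intervals on the left include 0 (Gadd45a there compares values below the filter level), and on the right those of Asns 161221_f_at and Gadd45a do not. For Gadd45a the right side sets A20 against AxJ values below the filter level.

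The hnRNP-H and empty vector lines, with 1 array each, were compared by size alone, without a test. This was done for the 6 member probe sets above the filter level on 1 or both of these arrays, a limit set after the values were seen, which left out Gadd45a. Of these, 2 were at least 2-fold lower in hnRNP-H, namely Atf3 (-1.06) and Ddit3 (-1.003), against 8.50% of all probe sets under the same limit, and none was 2-fold higher. Neither was 2-fold lower with the pseudocount at the 40th percentile (-0.76 and -0.93), and Ddit3 also fell short under the authors' scaling (-0.89) and median scaling (-0.75). Asns parted between its probe sets, with 0.57 at 95133_at and -0.85 at 161221_f_at, while Atf4 differed by 0.072 and Ppp1r15a by -0.13. Between subclones D6 and B5, also compared by size alone, Atf3 was the one of 6 at least 2-fold lower in D6 (-1.29), against 5.87% of all probe sets under this limit, and none was 2-fold higher. Asns differed by 0.58 and 0.064, Ddit3 by -0.32, Atf4 by -0.14 and Ppp1r15a by -0.104. Both pairs set an array of high Gapdh ratio against one of low ratio, 0.866 against 0.212 and 0.683 against 0.181. Atf3 was lower and Asns 95133_at higher on the array of high ratio in each pair, and line and ratio cannot be told apart within a pair.

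Other genes of the pathway were read from lists, without the members, and none of their genes passed for the hnRNP-F clones (smallest limma adjusted p = 0.788). Over all 9108 probe sets, 263 (2.89%) passed as higher in A20 and 273, a like share, as lower, to be set beside the list counts that follow. In A20, none of 13 measured genes of eIF2 phosphorylation and its guanine exchange factor passed (median 0.057). Eif2b4, an exchange factor subunit, differed by 1.43 (adjusted p = 0.0567). Dnajc3, an inhibitor of eIF2 kinases, differed by -1.43 (adjusted p = 0.0987), with -0.49 and -1.86 at its other measured probe sets. The kinase Eif2ak3 (PERK) read 35.7 and 37.8 in the controls, against 28.1 for A20, and Eif2ak4 (GCN2) 34.8 and 45.2 against 115. Neither kinase passed, with adjusted p of 0.821 and 0.197.

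Most genes of amino acid supply did not pass in A20. Of 17 kept, 13 did not pass, 2 rose and 2 fell (median -0.34). Mthfd2, a mitochondrial folate enzyme, rose by 1.86 (SE 0.31, limma adjusted p = 0.0118), with control levels of 691 and 566 and 2290 in A20. Bcat1, a branched-chain aminotransferase, rose by 1.29 (SE 0.31, adjusted p = 0.0466). Slc3a2, the heavy chain of several amino acid transporters, fell by 1.80 (SE 0.36, adjusted p = 0.0239), from 1903 and 3019 to 683. The neutral amino acid transporter gene Slc38a2 fell by 1.62 (SE 0.38, adjusted p = 0.0433). The other probe sets of Mthfd2 and Slc38a2 did not pass the filter on low values. Psat1, an enzyme of serine synthesis, read 5287 and 6953 in the controls, against 3686 for A20, and did not pass (adjusted p = 0.259). Among 20 genes of tRNA charging and export 1 rose, Rars1 for arginine, by 1.37 (SE 0.30, adjusted p = 0.0344), and none fell (median 0.30).

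Of 17 other targets of ATF4 or CHOP, 2 fell in A20 and none rose (median -0.51). Ddit4, an inhibitor of mTORC1 signalling, fell by 2.30 (SE 0.45, limma adjusted p = 0.0230), with control levels of 498 and 305 and 74.1 in A20. Eif4ebp1, which restrains cap-dependent translation, fell by 1.34 (SE 0.32, adjusted p = 0.0491). Trib3, a pseudokinase induced by ATF4 and CHOP, read 96.5 and 55.0 in the controls, against 69.3 for A20 (adjusted p = 0.964). None of 13 partner genes of the ATF and C/EBP families passed (median -0.12), with Atf2 at 1.33 (adjusted p = 0.0908) and Nfil3 at -1.12 (adjusted p = 0.213).

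Of 18 immediate early genes, 2 fell in A20 (median 0.019). The antiproliferative gene Btg2 fell by 1.90 (SE 0.36, limma adjusted p = 0.0208), and Ier3 fell by 2.29 (SE 0.50, adjusted p = 0.0332). Of 10 genes of the p53 response and the Gadd45 family, 1 fell (median 0.64). Sesn1, a stress-induced inhibitor of mTORC1, fell by 2.68 (SE 0.32, adjusted p = 0.00247), from 714 and 739 to 108. Cdkn1a, the p53 target p21, read 40.7 and 112 in the controls, against 67.5 for A20 (adjusted p = 0.995). Of 10 genes of the other arms of the unfolded protein response, 1 fell (median -0.71). The chaperone gene Hspa5 fell by 2.26 (SE 0.28, adjusted p = 0.00312), from 4265 and 4892 to 949.

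Sesn1 passed in all 14 alternatives, and Mthfd2 and Hspa5 in 13. Ddit4 passed in 11, Btg2 in 10, Slc3a2 and Rars1 in 9, Bcat1 in 8, Eif4ebp1 and Ier3 in 7 and Slc38a2 in 5. Without empty vector the calls of Slc38a2, Bcat1, Rars1, Ddit4, Eif4ebp1 and Ier3 were lost (limma adjusted p from 0.0690 to 0.123). Without hnRNP-H those of Slc38a2 and Ier3 were lost (0.0636 and 0.0895). Without B5 or without D6 those of Slc3a2, Slc38a2, Bcat1, Rars1, Eif4ebp1, Btg2 and Ier3 were lost (0.0621 to 0.156).

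**Figure D4:**
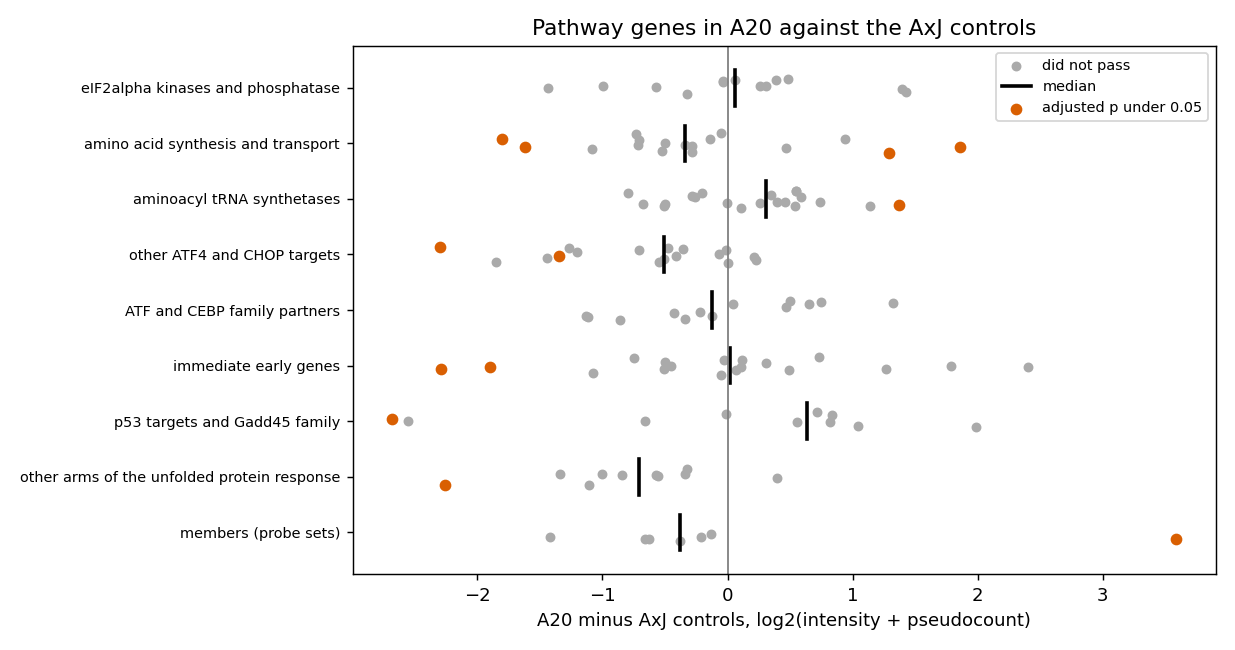
Difference of A20 from the AxJ controls on the log2(intensity + pseudocount) scale, 1 point per gene kept in each list and, in the last row, per member probe set, with medians as black bars. Genes past the threshold lie on both sides of 0 for amino acid supply. Gadd45a is the only member past it, but it was kept through A20 alone and not every alternative kept its call.

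The genes most like each member were those with the smallest root mean square difference of mean-centred log2 values over the 5 arrays. For Gadd45a these were Adm (0.18), which encodes the peptide adrenomedullin, and the nuclear receptor corepressor gene Nrip1 (0.34). Adm read 14.8, 3.75, 12.0 and 6.76 in empty vector, hnRNP-H, B5 and D6 and 214 in A20. Nrip1 read 4.02 to 15.7 in the AxJ lines and 115 in A20. Like Gadd45a, both lay below the filter level in every AxJ line, so the likeness rests mainly on the A20 array. For Atf3 they were the intermediate filament gene Vim (0.11), itself on the stromal list, and Spock2 (0.13). For Asns they were Gtf2f2 (0.062), a subunit of the general factor TFIIF, and Slfn4 (0.067). Ddit3 was most like Nae1 (0.067) and Rcor1 (0.069), Ppp1r15a like Sec1 (0.021) and Tufm (0.048), and Atf4 like Srcap (0.029) and Ipo5 (0.030).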

How the data were processed

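The authors deposited linear intensities, 1 for each of the probe sets on an array. Each array's mean, with 2 percent trimmed at each end, was 150.1, so per the deposited intensities the authors had scaled the arrays to one target. The software, a background step and detection calls: not given in the sources used here. Symbols came from the platform annotation, updated through gene identifiers. Of 12488 probe sets, 66 controls were left out of tests.

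The A20 median stood -11.55 percent from the mean of the array medians, so arrays were quantile normalised. Differences of log2(intensity + 6.55), the 20th percentile, were fitted in R 4.3.3 with limma 3.58.1 (eBayes with intensity trend after lmFit) over 9108 probe sets. Kept were those above 21.8, the 40th percentile, on at least 1 array. The fit had 3 coefficients (hnRNP-F clones, AxJ controls, that is empty vector and hnRNP-H, and A20) and 2 residual degrees of freedom (prior 6.51). Any effect of hnRNP-H enters both the control mean and the spread, and for A20, with 1 array, the spread of AxJ was assumed. The threshold was a two-sided p of 0.05 after Benjamini-Hochberg adjustment over all kept probe sets. An exact test of 2 arrays against 2 cannot go below 0.333. The procedure was tested on simulated data: large changes were recovered and most of the smallest were missed. A probe set that did not pass may therefore still differ. False calls were slightly more frequent than the threshold allows. The simulated arrays varied independently, with the same spread for A20 as for AxJ. The simulation therefore could not test that assumption, nor differences shared between arrays such as the Gapdh ratio.

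Members and lists were chosen with earlier results of these data known. Named were all member probe sets. From each list came up to 4 genes past the threshold in A20 by smallest adjusted p, otherwise the 2 of largest moderated statistic, each by its brightest probe set. The 2 nearest patterns per member were also named. Psat1, Eif2ak3, Eif2ak4, Trib3 and Cdkn1a were added for their known roles after their values were seen. Alternatives covered scaling, pseudocount, filter, trend, grouping, a Gapdh ratio block, 1 probe set per gene and each AxJ array left out.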

Additional observations from a re-analysis of the deposited data

How the results depend on the processing

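Of 187 values of the member probe sets under the alternatives, 159 kept their direction and side of the threshold, 19 changed sign, 7 lost the Gadd45a call and 2 gained one for Asns 161221_f_at. No member passed for the hnRNP-F clones under any of 13 alternatives, the lowest adjusted p being 0.266. All sign changes were of differences that had not passed. For the clones, Atf4 read 0.013 under median scaling. With empty vector as the only control, Atf4 read 0.021, Gadd45a -0.58, Atf3 -0.068, Ppp1r15a -0.0084 and Asns 95133_at 0.28. With each AxJ array left out in turn, the clones' differences ranged from -0.087 to 0.056 for Atf4, -0.94 to 0.067 for Ddit3, -0.58 to 0.83 for Gadd45a, -0.18 to 1.11 for Atf3, -0.0084 to 0.12 for Ppp1r15a, -0.79 to 0.066 for Asns 161221_f_at and -0.30 to 0.28 for Asns 95133_at. In A20 they ranged from -0.88 to 0.12 for Ddit3, -0.75 to 0.32 for Atf3 and 2.89 to 4.29 for Gadd45a. Probe sets past the threshold for the clones numbered 1, but 0 without the filter and 0 without the trend, and 0 to 3 with an array left out. In A20 they numbered 536, but 309 without the filter and 146 without the trend, and 242 to 614 with an array left out. They numbered 326 without empty vector, 254 without clone D6 and 242 without clone B5. The members called in A20 numbered 1, but 0 with a pseudocount of 1, 0 without the filter, 0 without the trend, and 0 to 1 with an array left out. With an array left out, 1 residual degree of freedom remains. The cause of the changes in these counts was not tested. No paired analysis was possible because the labels give no replicate numbers that would pair samples. The block of low and high Gapdh ratio, set from the arrays, changed no member's call (Gadd45a in A20, adjusted p = 0.0216). Detection calls were not used here, so for Gadd45a in AxJ and 2 Atf3 probe sets, signal and background cannot be told apart.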

Other observations

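Gadd45b, which encodes a relative of GADD45A and was picked after its values were seen, lay opposite to Gadd45a in A20. At its brightest probe set B5 read 695, empty vector 496, D6 335, hnRNP-H 174 and A20 44.9, so that A20 lay below every AxJ array. The difference from the AxJ controls was -2.55 and missed the threshold (limma adjusted p = 0.0525), and a second probe set differed by -0.76 (adjusted p = 0.383). The third relative, Gadd45g, read 6.32 to 12.5 in the AxJ lines and 21.8 in A20 and did not pass the filter on low values. Cebpb, a C/EBP partner of ATF4 that was also picked after its values were seen, read 998 in B5 and 345 to 502 in the other cultures.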
